A study of Mus musculus with 4 samples.

Results

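Norrin and Wnt signals build and maintain the blood-retina barrier, and 10 genes of this pathway were followed in retinal cells of Diabetic and Ctrl mice. The genes were taken by symbol from the 55357 genes of the deposited tables and all 10 were found: the ligand gene Ndp, the receptor genes Fzd4 and Fzd6, the co-receptor genes Lrp5, Lrp6 and Tspan12, and the nuclear effector and target genes Lef1, Apcdd1, Sox17 and Foxq1. Their UMIs (unique molecular identifiers, each standing for 1 captured RNA molecule) were summed per library over Müller glia for the ligand and over endothelial cells for the receptors and targets. In all endothelial cells together Fzd4 and Fzd6 were called lower in Diabetic, Ndp was too rare there to test, and the other 7 members were not called. Apcdd1 was called higher in arterial-gated cells. Each of these calls was lost when at least 1 of the 4 libraries was left out.

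Norrin, the protein of Ndp, is not a Wnt, but it binds the receptor FZD4 on endothelial cells with the co-receptors LRP5 or LRP6 and the helper tetraspanin TSPAN12. The bound complex lets beta-catenin enter the nucleus, where it works with TCF and LEF factors on genes such as Apcdd1. In mice, loss of Norrin or Fzd4 leaves the retinal vessels incomplete and leaky.

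The study, whose title asks about endothelial cells and the blood-retina barrier in diabetic retinopathy, compared 2 libraries labelled Diabetic with 2 labelled Ctrl. All came from mouse retina, and the live cells had been enriched on beads for CD31, the endothelial adhesion protein PECAM1, before 10x Chromium 3′ sequencing. The labels give no strain, age, diabetes model, duration, or number of animals per library. Separate animals are not named for the libraries, and p-values therefore measure only the spread between libraries, which may be technical.

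Diabetic 1 held 7991 barcodes and 58792636 UMIs and Diabetic 2 held 3934 and 41239892, while Ctrl 1 held 6394 and 54901304 and Ctrl 2 held 3091 and 29792902. Between 5 and 9 barcodes were shared by any 2 libraries. The label of CD31+ cells covered more than endothelium, since 7035 barcodes passed a gate for rod photoreceptors. A barcode counted as endothelial with at least 60 UMIs of 14 endothelial markers per 10000 UMIs, at least 5 of those markers, and limited markers of other cells. This left 1122 and 530 endothelial cells in Diabetic and 491 and 215 in Ctrl, and the same kind of gate left 110 and 64 Müller glia in Diabetic and 131 and 90 in Ctrl. In the gated endothelial cells the 14 markers summed to 16525 and 15776 CPM (summed UMIs scaled to a common total over all genes) in Diabetic and 16151 and 16537 CPM in Ctrl. A further 3010 barcodes passed on endothelial markers but were left out for markers of other cells. CPM values here are not divided by gene length, so levels are compared between cells or libraries and not between genes.

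The promoter windows of Fzd4, Lef1 and Ndp are printed because they belong to the called receptor, the LEF factor of the pathway and the ligand. RefSeq sequences (build GRCm38.p6) matched 4 of the 10 members, and each window holds the 250 bases upstream of a start. Capitals mark the TCF/LEF letters CTTTGA and the SOX letters ACAAT, searched on both strands, which do not overlap in these windows. Of 32851 promoters, 13.8% held CTTTGA and 27.7% held ACAAT. The Fzd4 window lies at chr7:89404116-89404365 on the plus strand and holds neither motif. The Ndp window, at chrX:16911775-16912024 on the minus strand, also holds neither. The Lef1 window shown, at chr3:131156044-131156293 on the plus strand, is the last of 4 starts and the only one of them with matches. It has 2 TCF/LEF matches and 1 SOX match. This window lies well inside the gene (chr3:131110471-131224356). The windows of the other starts, at or near the beginning of the gene, hold neither motif.
Fzd4: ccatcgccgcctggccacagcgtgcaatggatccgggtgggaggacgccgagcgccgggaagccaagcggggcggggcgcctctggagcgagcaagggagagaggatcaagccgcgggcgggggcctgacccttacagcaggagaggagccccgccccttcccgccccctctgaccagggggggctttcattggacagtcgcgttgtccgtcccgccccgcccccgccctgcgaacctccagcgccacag
Lef1: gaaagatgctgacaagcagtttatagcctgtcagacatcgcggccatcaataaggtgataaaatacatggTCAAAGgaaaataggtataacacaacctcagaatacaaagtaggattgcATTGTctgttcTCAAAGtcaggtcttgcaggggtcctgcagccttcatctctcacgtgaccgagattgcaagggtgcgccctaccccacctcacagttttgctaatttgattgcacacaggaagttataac
Ndp: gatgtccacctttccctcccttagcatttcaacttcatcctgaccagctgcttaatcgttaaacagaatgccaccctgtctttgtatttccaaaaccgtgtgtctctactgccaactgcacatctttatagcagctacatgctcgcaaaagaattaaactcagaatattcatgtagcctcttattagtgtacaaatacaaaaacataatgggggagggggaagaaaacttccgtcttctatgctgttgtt
A match in a window describes its letters only.

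Ndp, the Norrin gene (ENSMUSG00000040138, chrX:16885521-16911774, GRCm38), was seen mainly in Müller glia, the radial glia that span the retina. In Müller glia it stood at 16.5 CPM in Diabetic 1 and 27.4 CPM in Diabetic 2, from 8 and 13 UMIs. Ctrl 1 and Ctrl 2 stood at 23.3 and 23.8 CPM, from 18 and 17 UMIs. The Ctrl values lay between the 2 Diabetic values, so the groups overlapped. Averages were 21.9 ± 7.66 CPM in Diabetic and 23.5 ± 0.388 CPM in Ctrl (SD, n = 2 each), and the log2 fold change was -0.09 ± 0.43 (SE; edgeR adjusted p = 0.983). The direction turned without Diabetic 1, where it was 0.27. At 56 UMIs in all, only a large change in Norrin RNA could have been seen. The Müller gate set no limit on pigment epithelium markers. In the Müller sums these were at 28.9 and 1275 CPM in Diabetic and 473 and 1.40 CPM in Ctrl. Their part in the result was not tested.

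Across cell classes the order of Ndp was Müller glia, then endothelial cells, rods and cones. Müller glia ranged from 16.5 to 27.4 CPM over the 4 libraries and endothelial cells from 0.644 to 2.45 CPM, with no overlap. The endothelial values rest on 3 and 2 UMIs in Diabetic and 4 and 3 in Ctrl. Müller markers were present in the endothelial sums at 1288 to 1391 CPM, against 18364 to 23040 CPM in Müller glia. Their part in endothelial Ndp was not tested. Rods ranged from 0.311 to 0.529 CPM, below the endothelial range, and cones from 0 to 0.888 CPM, which overlapped rods and endothelial cells. No UMI of Ndp was found in pericytes or smooth muscle, bipolar cells or microglia. A count of 0 in the pericyte sums allows between 15.8 and 24.9 CPM in a single library (3 counts), and 4.73 CPM over the 634364 UMIs of the 4 libraries together, which is below the Müller range. The class gates used none of the 10 members.

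Counted per cell, an Ndp UMI was present in 7.27% and 17.2% of Diabetic Müller glia and in 13% and 16.7% of Ctrl Müller glia. In rods, which should lack it, the shares were 0.463% and 0.662% in Diabetic and 0.261% and 0.531% in Ctrl. Median depths differed between libraries, at 3964 and 6012 UMIs in Diabetic Müller glia and 4995 and 6998 in Ctrl Müller glia. Rods stood at 4068 and 6021 UMIs in Diabetic and 3587 and 6026 in Ctrl. Diabetic 1, with the lowest share of Müller glia with an Ndp UMI, also had the shallowest Müller glia. After thinning to 1000 UMIs per cell, the Müller shares were 2.04% and 1.72% of 98 and 58 cells in Diabetic. In Ctrl they were 3.94% and 4.76% of 127 and 84 cells. Each of these Müller shares rests on only a few cells with an Ndp UMI. The thinned shares of rods were 0.0422% and 0.0856% in Diabetic and 0.0470% and 0.112% in Ctrl. The genes most like Ndp over 28 class-by-library sums of 7 classes, by Pearson's r of log2(CPM + 1), were Cyp26a1 (r = 0.96), which degrades retinoic acid, Hepacam, a glial adhesion protein (0.96), Lrrc66 (0.96), A830092H15Rik (0.95) and Folh1 (0.95). These correlations are descriptive, since sums of 1 library share their depth.

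Fzd4 (ENSMUSG00000049791, chr7:89404355-89413134), the Norrin receptor, stood at 228 and 222 CPM in Diabetic 1 and Diabetic 2 endothelial cells, from 1034 and 689 UMIs. Ctrl 1 and Ctrl 2 stood at 312 and 283 CPM, from 617 and 347 UMIs. Both Diabetic libraries were below both Ctrl libraries. The averages were 225 ± 4.34 CPM in Diabetic and 297 ± 20.1 CPM in Ctrl (SD, n = 2 each), a log2 fold change of -0.41 ± 0.10 (SE; edgeR adjusted p = 0.0401). Fzd4 was thus called lower, at an adjusted p near the threshold of 0.05.

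Fzd6 (ENSMUSG00000022297, chr15:39006034-39038188) encodes another Frizzled receptor, known from planar cell polarity. It stood at 155 and 156 CPM in the Diabetic libraries, from 703 and 485 UMIs. The Ctrl libraries stood at 226 and 233 CPM, from 447 and 286 UMIs. Both Diabetic libraries were below both Ctrl libraries. The small gap within each group rests on 2 libraries and is a poor measure of spread. Averages were 156 ± 0.821 CPM in Diabetic and 230 ± 5.42 CPM in Ctrl (SD, n = 2 each), with a log2 fold change of -0.56 ± 0.10 (edgeR adjusted p = 0.00655).

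The share of endothelial cells with an Fzd4 UMI was 47.9% and 56.6% in Diabetic and 58.7% and 63.7% in Ctrl, at median depths of 2991 and 4432 UMIs in Diabetic and 3069 and 4184 in Ctrl. Thinned to 1000 UMIs per cell, it was 19% and 19.3% in Diabetic and 22.4% and 23.9% in Ctrl, with 76, 38, 26 and 14 shallower cells left out of Diabetic 1, Diabetic 2, Ctrl 1 and Ctrl 2. Both measures were lower in both Diabetic libraries. In rods the thinned share was 3.0% and 3.77% in Diabetic and 3.10% and 3.36% in Ctrl.

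**Figure D1:**
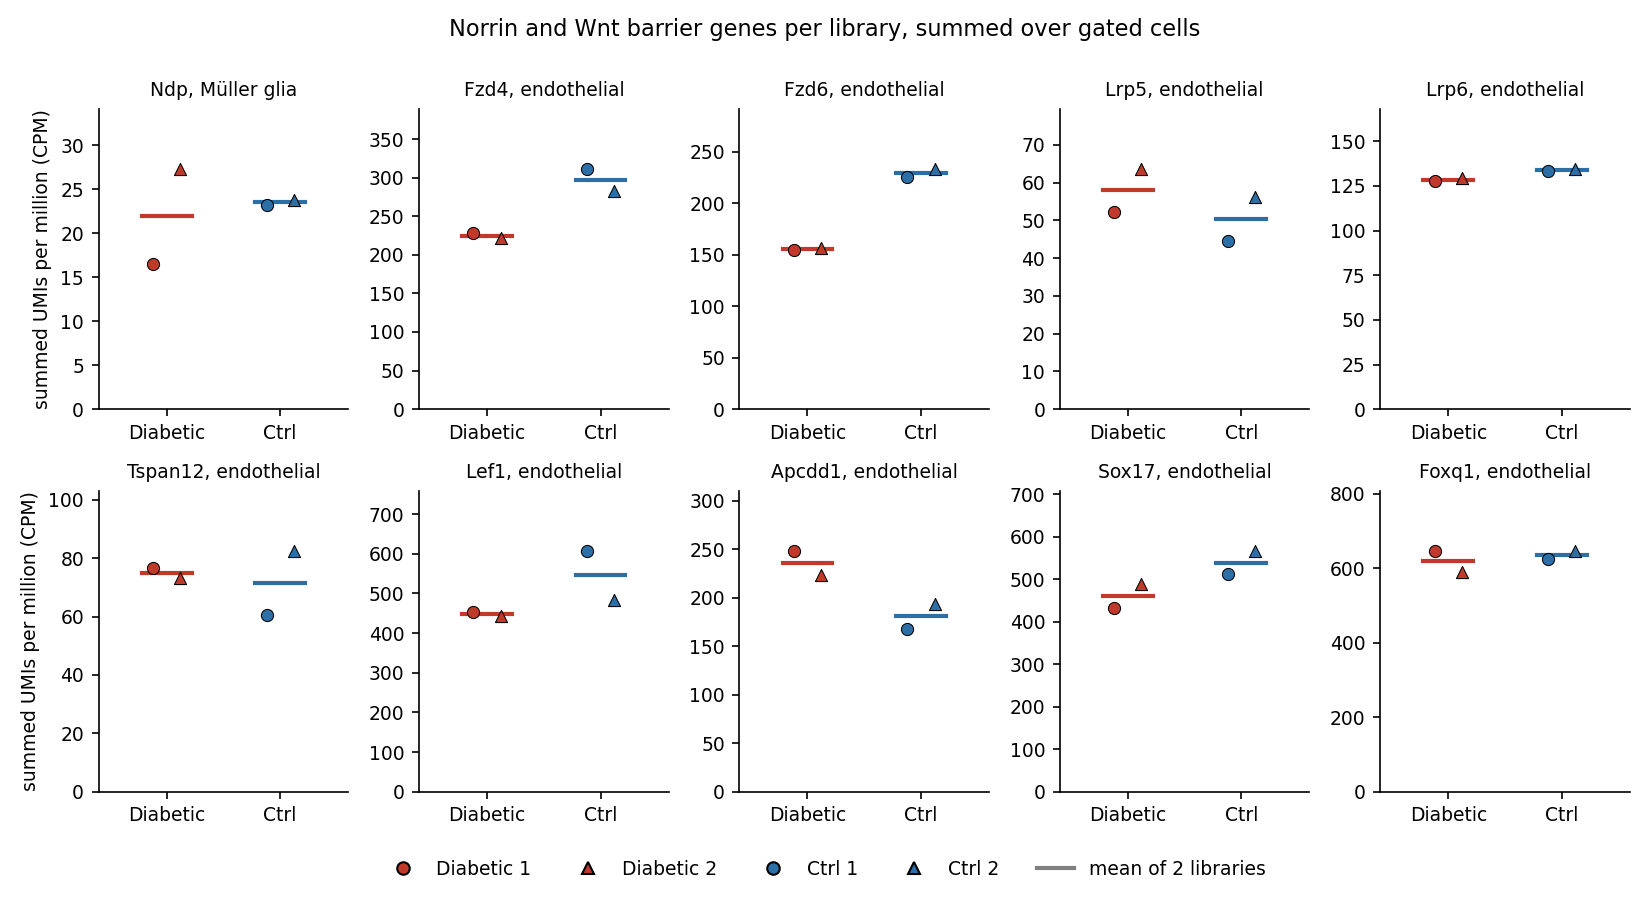
Level of each of the 10 genes (CPM, axes from 0) in each library, for Ndp in Müller glia and for the others in endothelial cells; circles and triangles are replicate 1 and 2 and the bar is the mean of 2 libraries. Fzd4 and Fzd6 lie lower in both Diabetic libraries (225 and 156 CPM on average) than in both Ctrl libraries (297 and 230 CPM).

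Of the 9 members tested in endothelial cells, 0 were called higher and 2 lower, while over all 11599 genes tested 4.41% were called in either direction, 2.68% higher and 1.72% lower. Ndp was not tested there, with 5 UMIs in Diabetic and 7 in Ctrl. Fzd4 lost its call when any 1 library was left out, with log2 fold changes of -0.40 without Diabetic 1 (edgeR adjusted p = 0.252), -0.41 without Diabetic 2 (0.254), -0.35 without Ctrl 1 (0.171) and -0.46 without Ctrl 2 (0.0687), and under DESeq2 (-0.40, adjusted p = 0.239). Fzd6 lost it without Diabetic 1 (-0.53, edgeR adjusted p = 0.063). Across the 9 tested members the median log2 fold change was -0.06, beside -0.0015 over all genes tested. In 6 of the 9 the 2 groups did not overlap, and over all genes tested this was so for 47.6%.

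The co-receptors showed smaller differences. Lrp5, which pairs with FZD4 in Norrin signalling, had 52.2 and 63.7 CPM in Diabetic and 44.5 and 56.3 CPM in Ctrl (log2 0.22 ± 0.17, edgeR adjusted p = 0.582). Its relative Lrp6 had 128 and 129 CPM in Diabetic and 133 and 135 CPM in Ctrl (-0.06 ± 0.11, edgeR adjusted p = 0.827). Lrp5 values overlapped between the groups, whereas those of Lrp6 lay close together without overlap. Tspan12, which strengthens the Norrin signal through FZD4, had 76.7 and 73.4 CPM in Diabetic, between 60.6 and 82.4 CPM in Ctrl (0.10 ± 0.15, edgeR adjusted p = 0.802).

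Lef1 (ENSMUSG00000027985, chr3:131110471-131224356), a DNA-binding partner of beta-catenin and itself a Wnt target, had 452 and 444 CPM in Diabetic and 607 and 484 CPM in Ctrl endothelial cells. Both Diabetic libraries were below both Ctrl libraries, but Ctrl 1 stood far above Ctrl 2, and Lef1 was not called (-0.29 ± 0.11, edgeR adjusted p = 0.198). Apcdd1, a Wnt-induced membrane protein that inhibits Wnt signalling, lay the other way, with 248 and 223 CPM in Diabetic and 168 and 193 CPM in Ctrl. The groups did not overlap, yet the difference did not pass (0.39 ± 0.11, edgeR adjusted p = 0.0738).

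Sox17, a SoxF factor that acts downstream of Norrin and Fzd4 in mouse retinal vessels, had 432 and 490 CPM in Diabetic and 512 and 567 CPM in Ctrl (-0.23 ± 0.11, edgeR adjusted p = 0.328). Foxq1 (ENSMUSG00000038415, chr13:31556134-31560976), a forkhead factor of barrier endothelium, had 646 and 592 CPM in Diabetic and 625 and 646 CPM in Ctrl (-0.04 ± 0.10, edgeR adjusted p = 0.890). Sox17 values did not overlap and those of Foxq1 did. The target genes thus gave no called change in either direction in all endothelial cells together.

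Several other measures moved with the groups in the same endothelial sums. Cells of inflamed venules were gated on Ackr1, Lcn2, Lrg1, Selp, Sele, Vcam1 and Icam1. They were 9.36% and 11.9% of Diabetic and 1.02% and 1.86% of Ctrl endothelial cells. Their weight in the Diabetic sums was larger, since their median depths there were 6307 and 8621 UMIs. They held 816509 of 4537183 and 745350 of 3106912 endothelial UMIs in Diabetic. In Ctrl they held 17119 of 1979560 and 30610 of 1224987. In these cells Fzd6 stood at 98 and 87.2 CPM in the Diabetic libraries, from 105 and 63 cells, below its level in all Diabetic endothelial cells, and the 5 and 4 Ctrl cells were too few to use. Without them Fzd6 was at -0.42 (edgeR adjusted p = 0.0604) and Fzd4 at -0.46 (edgeR adjusted p = 0.0344). Arterial, capillary and venous-gated cells were also drawn down to equal numbers within each library, and all other endothelial cells were left out. This kept 183 and 141 cells in Diabetic and 84 and 66 in Ctrl. Neither gene was called there, with Fzd6 at -0.36 (edgeR adjusted p = 0.526) and Fzd4 at -0.40 (0.343). Fewer cells and a changed mix of zones come together in this setting, so their parts cannot be told apart.

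Venous markers summed to 1480 and 1726 CPM in Diabetic and 643 and 844 CPM in Ctrl endothelial cells. Arterial markers were at 709 and 720 CPM in Diabetic and 859 and 1139 CPM in Ctrl. Of 7 neutrophil markers, 6 were detected in the endothelial sums, at 33.5 and 36.0 CPM in Diabetic and 0 and 0 CPM in Ctrl, with Ly6g at 0. Median mitochondrial shares were 2.87% and 3.59% in Diabetic and 5.81% and 5.22% in Ctrl. Under a limit of 10% mitochondrial UMIs Fzd4 was at -0.44 and Fzd6 at -0.56, both called. The part of the neutrophil and venous markers in these results was not tested.

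Of the markers of neighbouring cells, those of pericytes, Müller glia and rods overlapped between the groups. All 12 pericyte markers were detected in the endothelial sums, at 1484 and 1407 CPM in Diabetic and 1527 and 1318 CPM in Ctrl. The 10 rod markers were at 5543 and 3606 CPM in Diabetic and 6507 and 4317 CPM in Ctrl. Markers of 5 other kinds of cell were higher in both Diabetic libraries than in both Ctrl libraries. Fibroblast markers were at 21.8 and 71.8 CPM in Diabetic and 4.55 and 4.90 CPM in Ctrl, and erythrocyte markers at 68.3 and 56.3 CPM in Diabetic and 34.4 and 38.4 CPM in Ctrl. The others were bipolar markers, at 51.1 and 45.7 CPM in Diabetic and 42.4 and 32.7 CPM in Ctrl, amacrine or ganglion markers, at 269 and 258 CPM in Diabetic and 257 and 254 CPM in Ctrl, and pigment epithelium markers, at 5.29 and 6.76 CPM in Diabetic and 1.52 and 4.90 CPM in Ctrl. Their part in the results was not tested. The receptor differences were smaller where barcodes with markers of other cells were kept. With endothelial markers as the only condition, Fzd4 was at -0.30 (edgeR adjusted p = 0.0921) and Fzd6 at -0.26 (edgeR adjusted p = 0.132). In the 1924 endothelial barcodes with pericyte markers, Fzd6 stood at 144 and 143 CPM in Diabetic and 153 and 134 CPM in Ctrl, which overlap (-0.04, edgeR adjusted p = 0.911). Fzd4 there was at 190 and 190 CPM in Diabetic and 217 and 218 CPM in Ctrl (-0.23, edgeR adjusted p = 0.322).

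Expression across cell classes set most members apart as endothelial. With library as a block, 9 members were higher in endothelial cells than in Müller glia and Ndp was lower, and over all 11427 genes tested 63.2% differed, 32.1% higher and 31.1% lower in endothelial cells. The log2 differences, endothelial minus Müller, were 7.95 ± 0.24 for Foxq1, 7.28 ± 0.23 for Sox17, 5.46 ± 0.18 for Lef1, 5.38 ± 0.20 for Fzd4 and 3.96 ± 0.21 for Fzd6, and -3.90 ± 0.47 for Ndp (edgeR adjusted p = 1.79e-08 for Ndp). Lrp6 gave the smallest, 0.75 ± 0.12 (edgeR adjusted p = 4.88e-06).

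Fzd4 was ordered as endothelial cells, pericytes or smooth muscle, rods and cones, with the other classes below. Its ranges over 4 libraries were 222 to 312 CPM in endothelial cells, 75.4 to 132 CPM in pericytes or smooth muscle, 30.1 to 34.4 CPM in rods and 27.2 to 31.7 CPM in cones. The first 3 did not overlap, while rods and cones did. Müller glia, at 4.21 to 10.3 CPM, overlapped bipolar cells at 5.24 to 14.9 CPM. The genes most like Fzd4 over the 28 sums were Sema3g, a semaphorin (r = 0.91), Garre1 (0.90), Apbb2 (0.90), Scarf1, a scavenger receptor (0.89), and Sgms2, a sphingomyelin synthase (0.89).

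Fzd6 ranged from 155 to 233 CPM in endothelial cells, 33.2 to 47.5 CPM in pericytes or smooth muscle and 8.40 to 23.1 CPM in Müller glia, with no overlap. The remaining 4 classes, from 0 to 11.6 CPM, overlapped each other, and microglia reached the Müller range. Lrp6 had another pattern, with 128 to 135 CPM in endothelial cells, 113 to 127 CPM in rods and 107 to 119 CPM in cones. Photoreceptors thus held Lrp6 near its endothelial level while Fzd4 and Lef1 were far lower in them. Lrp5 in endothelial cells, at 44.5 to 63.7 CPM, overlapped pericytes or smooth muscle at 15.8 to 74.7 CPM. Tspan12 likewise spanned 60.6 to 82.4 CPM in endothelial cells and 52.7 to 109 CPM in pericytes or smooth muscle, with no UMI in microglia.

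Lef1, Sox17 and Foxq1 were all far higher in endothelial cells than elsewhere. Lef1 ranged from 444 to 607 CPM in endothelial cells, and its next class, pericytes or smooth muscle, from 0 to 31.4 CPM. Sox17 ranged from 432 to 567 CPM and Foxq1 from 592 to 646 CPM in endothelial cells, and neither passed 47.5 CPM in a library of any other class. Apcdd1 was broader, at 168 to 248 CPM in endothelial cells, 88.0 to 166 CPM in pericytes or smooth muscle, 23.8 to 57.7 CPM in bipolar cells and 20.7 to 39.99 CPM in Müller glia, and the last 2 ranges overlapped.

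**Figure D2:**
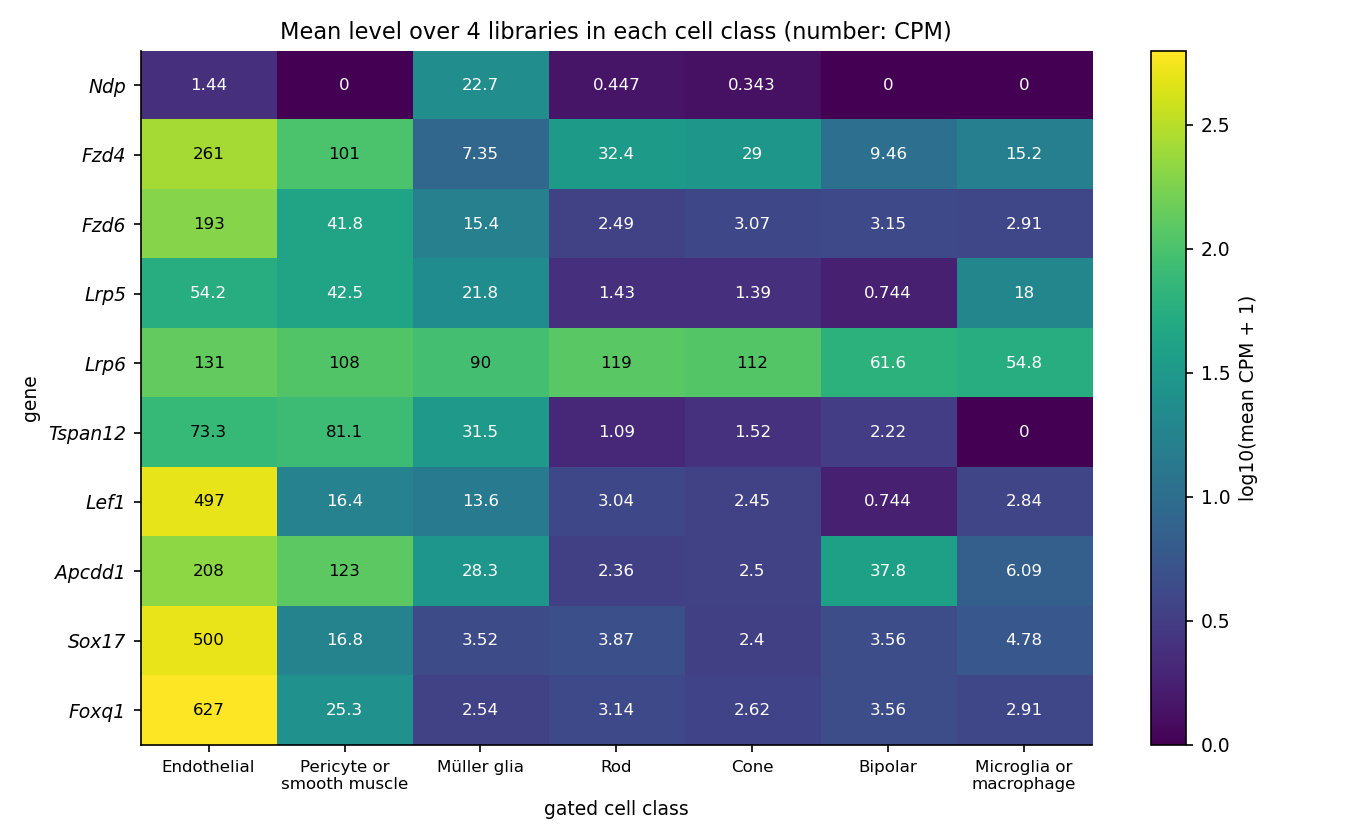
Mean level of each gene over 4 libraries in 7 gated cell classes; colour is log10(mean CPM + 1) and the number in each cell is the mean CPM. Ndp is highest in Müller glia (22.7 CPM), Fzd4 (261 CPM), Lef1 (497 CPM), Sox17 (500 CPM) and Foxq1 (627 CPM) in endothelial cells, and Lrp6 is spread over all classes.

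Outside the endothelium no member was called between the groups. In Müller glia edgeR called 0 of 6 tested members (0 at an unadjusted p under 0.05), and DESeq2 gave an adjusted p for none of the 6, where 0.0351% of 8555 genes were called. Fzd6 there had 18.6 and 23.1 CPM in Diabetic and 11.6 and 8.40 CPM in Ctrl (log2 1.05 ± 0.52, edgeR adjusted p = 0.613), from 20 and 15 UMIs per group. In pericytes or smooth muscle edgeR called 0 of 4 (0 unadjusted, 0 by DESeq2), against 0.175% of 3427 genes. Fzd4 in those cells had 96.8 and 75.4 CPM in Diabetic and 132 and 99.6 CPM in Ctrl (-0.53 ± 0.36, edgeR adjusted p = 0.827). In rods edgeR called 0 of 9, with 2 at an unadjusted p under 0.05, where 13.9% of 15423 genes were called, and in cones 0 of 6, with 1 unadjusted, where 2.89% of 12221 were called. In bipolar cells the 1 tested member was not called (0.168% of genes), and in microglia no member passed the filter on low counts (0.739% of genes were called). DESeq2 was not run on these 4 classes. The median log2 fold change of the tested members was 0.57 in rods and 0.73 in cones. Over all genes tested it was 0.0018 and -0.0033. Endothelial markers in the rod sums were at 257 and 182 CPM in Diabetic and 151 and 94.6 CPM in Ctrl. In the cone sums they were at 241 and 169 CPM in Diabetic and 122 and 102 CPM in Ctrl. Their part in the member values was not tested.

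The vessel tree was then split by marker gates that used none of the members. Arterial markers such as Gja5 and Bmx gave 61 and 47 cells in Diabetic and 44 and 29 in Ctrl. Capillary markers such as Car4 and Rgcc gave 347 and 170 cells in Diabetic and 217 and 80 in Ctrl. Venous markers such as Nr2f2 and Ephb4 gave 167 and 62 cells in Diabetic and 28 and 22 in Ctrl. The leading genes of the capillary-gated cells held only 1 of the capillary markers and also the Müller marker Rlbp1, so these cells are named by their gate alone.

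Zones differed in Fzd4, Lef1 and Apcdd1, which were all lower in arterial-gated cells. With library as a block, 3 of 9 tested members were called in arterial against capillary-gated cells, all 3 lower, where 8.07% of 6887 genes were called and 2.96% were lower. The log2 differences, arterial minus capillary, were -0.97 ± 0.18 for Apcdd1 (edgeR adjusted p = 0.000242), -0.55 ± 0.13 for Lef1 (0.00506) and -0.52 ± 0.15 for Fzd4 (0.0219). Against venous-gated cells 4 were called, 3 lower and 1 higher (over all genes 8.15%, with 4.56% lower and 3.59% higher), with -1.03 ± 0.19 for Apcdd1 (edgeR adjusted p = 0.000256), -0.70 ± 0.16 for Fzd4 (0.00242), -0.46 ± 0.14 for Lef1 (0.0372) and 0.58 ± 0.15 for Fzd6 (0.0136). Fzd6 was thus higher in arterial than in venous-gated cells, opposite to Fzd4. Between venous and capillary-gated cells edgeR called 0 of 9, against 4.24% of genes. Apcdd1 kept its calls without any 1 library.

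Fzd4, arterial minus capillary, was not called without Diabetic 2 (-0.42, edgeR adjusted p = 0.199), Ctrl 1 (-0.52, 0.0707) or Ctrl 2 (-0.40, 0.190). Lef1 lost the capillary call without Diabetic 2 (-0.42, edgeR adjusted p = 0.118). It lost the venous call without Diabetic 2 (-0.44, edgeR adjusted p = 0.109), Ctrl 1 (-0.35, 0.243) or Ctrl 2 (-0.42, 0.129). Fzd6, arterial minus venous, was not called without Diabetic 1 (0.51, edgeR adjusted p = 0.101) or Ctrl 2 (0.53, 0.0804). Under the tighter gate Fzd6 was at 0.16 (edgeR adjusted p = 0.842), and Fzd4 was at -0.35 against capillary-gated (0.483) and -0.49 against venous-gated cells (0.240).

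In arterial-gated cells Apcdd1 was the 1 member of 9 called between the groups, where 0.712% of 4496 genes were called and 0.4% were higher. It stood at 182 and 151 CPM in Diabetic 1 and Diabetic 2, from 45 and 36 UMIs, and at 49.2 and 71.6 CPM in Ctrl 1 and Ctrl 2, from 8 and 16 UMIs. By CPM, both Diabetic libraries were more than 2 times either Ctrl library. Counted per cell, the groups overlapped. An Apcdd1 UMI was present in 45.9% and 36.2% of Diabetic and in 15.9% and 41.4% of Ctrl arterial-gated cells. After thinning as for Fzd4, the shares were 9.84% and 16.3% in Diabetic and 4.65% and 17.2% in Ctrl. The averages were 167 ± 21.4 CPM in Diabetic and 60.4 ± 15.9 CPM in Ctrl (SD, n = 2 each), with a log2 fold change of 1.40 ± 0.34 (edgeR adjusted p = 0.0307). The call was lost without Diabetic 1 (1.32, edgeR adjusted p = 0.192) and without Ctrl 1 (1.21, 0.126). DESeq2 gave a log2 fold change of 1.44 ± 0.63 and no adjusted p for Apcdd1 there. The difference between the arterial and capillary effects was 1.26 ± 0.35 and was not called (edgeR adjusted p = 0.213). Arterial markers in these cells summed to 3162 and 3541 CPM in Diabetic and 3545 and 4051 CPM in Ctrl, and venous markers to 820 and 1077 CPM in Diabetic and 645 and 855 CPM in Ctrl. All 12 pericyte markers were detected, at 1623 and 1203 CPM in Diabetic and 1167 and 1007 CPM in Ctrl arterial-gated cells, and Apcdd1 was also present in pericytes. The part of these markers in the result was not tested.

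**Figure D3:**
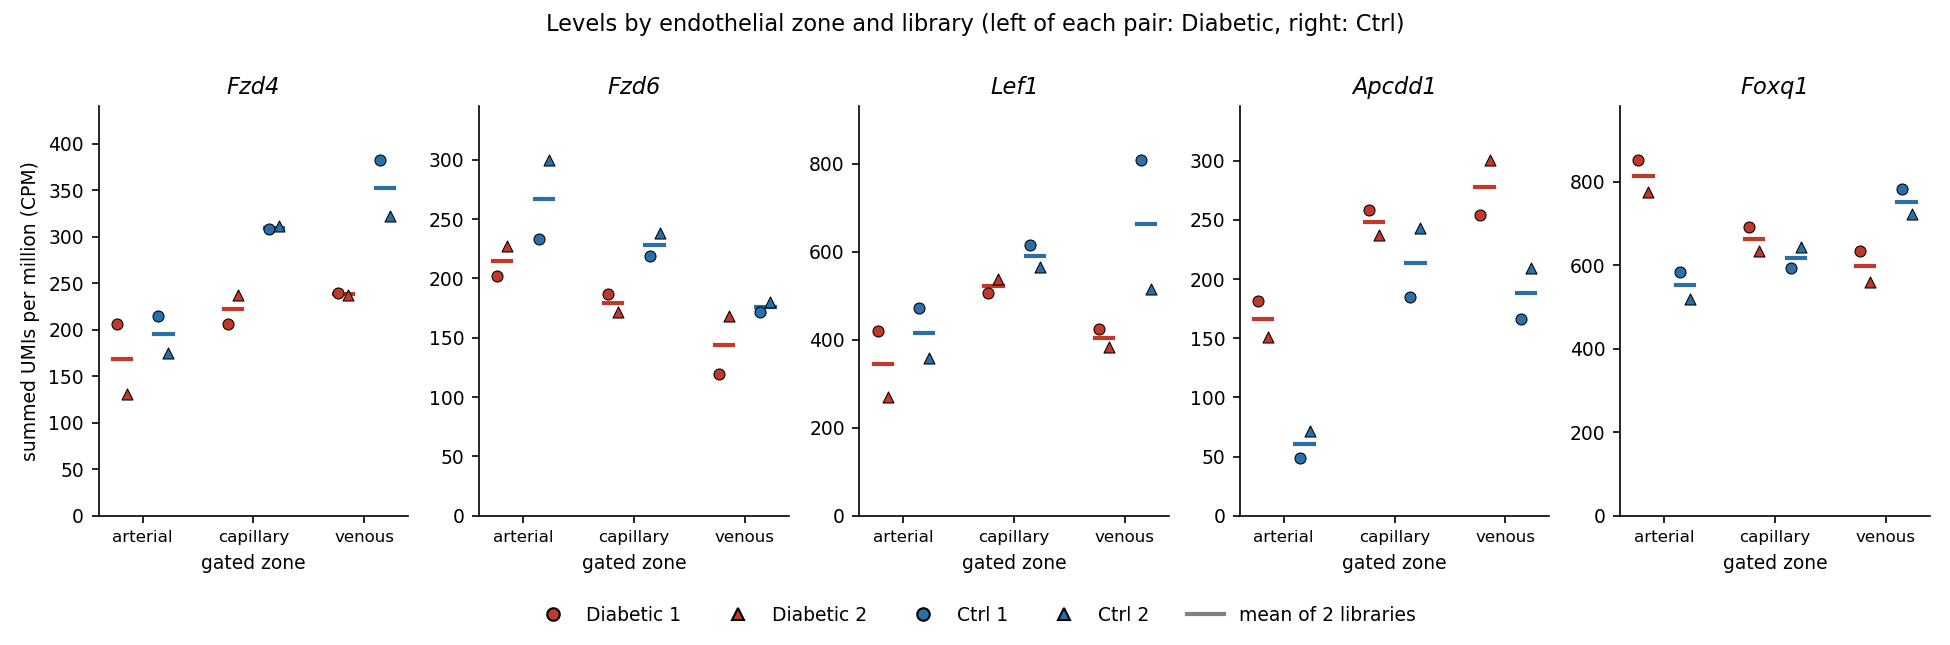
Levels of 5 genes (CPM, axes from 0) in arterial-, capillary- and venous-gated endothelial cells; in each pair Diabetic is on the left and Ctrl on the right, points are libraries and bars the mean of 2. In arterial-gated cells Apcdd1 averages 167 CPM in Diabetic and 60.4 CPM in Ctrl, and Foxq1 is higher in Diabetic in arterial-gated but lower in venous-gated cells.

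By CPM, Foxq1 lay on opposite sides in arterial and venous-gated cells. In arterial-gated cells it had 852 and 774 CPM in Diabetic and 584 and 519 CPM in Ctrl (0.54 ± 0.20, edgeR adjusted p = 0.238). In venous-gated cells it had 634 and 561 CPM in Diabetic and 782 and 721 CPM in Ctrl (-0.32 ± 0.16, edgeR adjusted p = 0.405). Neither zone alone passed, but the difference between the effects, arterial minus venous, was 0.88 ± 0.20 (edgeR adjusted p = 0.00607), where 1.18% of genes were called. Pericyte markers summed to 1623 and 1203 CPM in Diabetic and 1167 and 1007 CPM in Ctrl arterial-gated cells, and to 1377 and 1547 CPM in Diabetic and 1918 and 1740 CPM in Ctrl venous-gated cells, so they lay on the same sides as Foxq1. Arterial markers in venous-gated cells were at 614 and 588 CPM in Diabetic and 316 and 209.6 CPM in Ctrl. Their part in the result was not tested. The difference was not called without Diabetic 1 (0.91, edgeR adjusted p = 0.111), Diabetic 2 (0.84, 0.172), Ctrl 1 (0.90, 0.0596) or Ctrl 2 (0.84, 0.133). A tighter gate, chosen after seeing the data, gave 1.17 (edgeR adjusted p = 0.0546). No other member was called for a difference in effect between arterial and venous-gated cells. edgeR called 0 of 9 between arterial and capillary-gated cells (2 at an unadjusted p under 0.05, 0.145% of genes) and 0 of 9 between venous and capillary-gated cells (2 unadjusted, 1.12% of genes).

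In venous-gated cells edgeR called 0 of 9 members (3 at an unadjusted p under 0.05, and 0 of the 7 with an adjusted p by DESeq2), where 3.02% of 5627 genes were called. Lef1 came nearest, with 424 and 383 CPM in Diabetic and 809 and 517 CPM in Ctrl (-0.69 ± 0.19, edgeR adjusted p = 0.0583). Without Ctrl 1, its highest library, the value was -0.33 (edgeR adjusted p = 0.519), and without Ctrl 2 it was -0.98 (4.25e-05). Fzd4 had 240 and 237 CPM in Diabetic and 383 and 322 CPM in Ctrl (-0.55 ± 0.19, edgeR adjusted p = 0.144). The share of cells with an Fzd4 UMI overlapped, at 56.9% and 71.0% in Diabetic and 64.3% and 90.9% in Ctrl. After thinning it lay the other way from CPM, at 22.7% and 21.0% in Diabetic and 17.9% and 18.2% in Ctrl. The Ctrl shares rest on only 28 and 22 cells. Müller markers in the venous-gated cells were at 1320 and 1203 CPM in Diabetic and 787 and 721 CPM in Ctrl.

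In capillary-gated cells edgeR called 0 of 9 (2 unadjusted, and 0 of the 7 with an adjusted p by DESeq2), where 0.916% of 8846 genes were called. Fzd4 had 206 and 237 CPM in Diabetic and 308 and 311 CPM in Ctrl (-0.52 ± 0.14, edgeR adjusted p = 0.111). Fzd6 had 187 and 172 CPM in Diabetic and 219 and 238 CPM in Ctrl (-0.37 ± 0.14, edgeR adjusted p = 0.381). The fitted values of Fzd6 were -0.35 ± 0.25 in arterial, -0.37 ± 0.14 in capillary and -0.33 ± 0.25 in venous-gated cells. They lay close to each other and none was called. Each was smaller in size than the -0.56 in all endothelial cells. These zones do not cover all endothelial cells, and 32.3% of Diabetic and 32.0% of Ctrl cells fell in no zone gate.

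**Figure D4:**
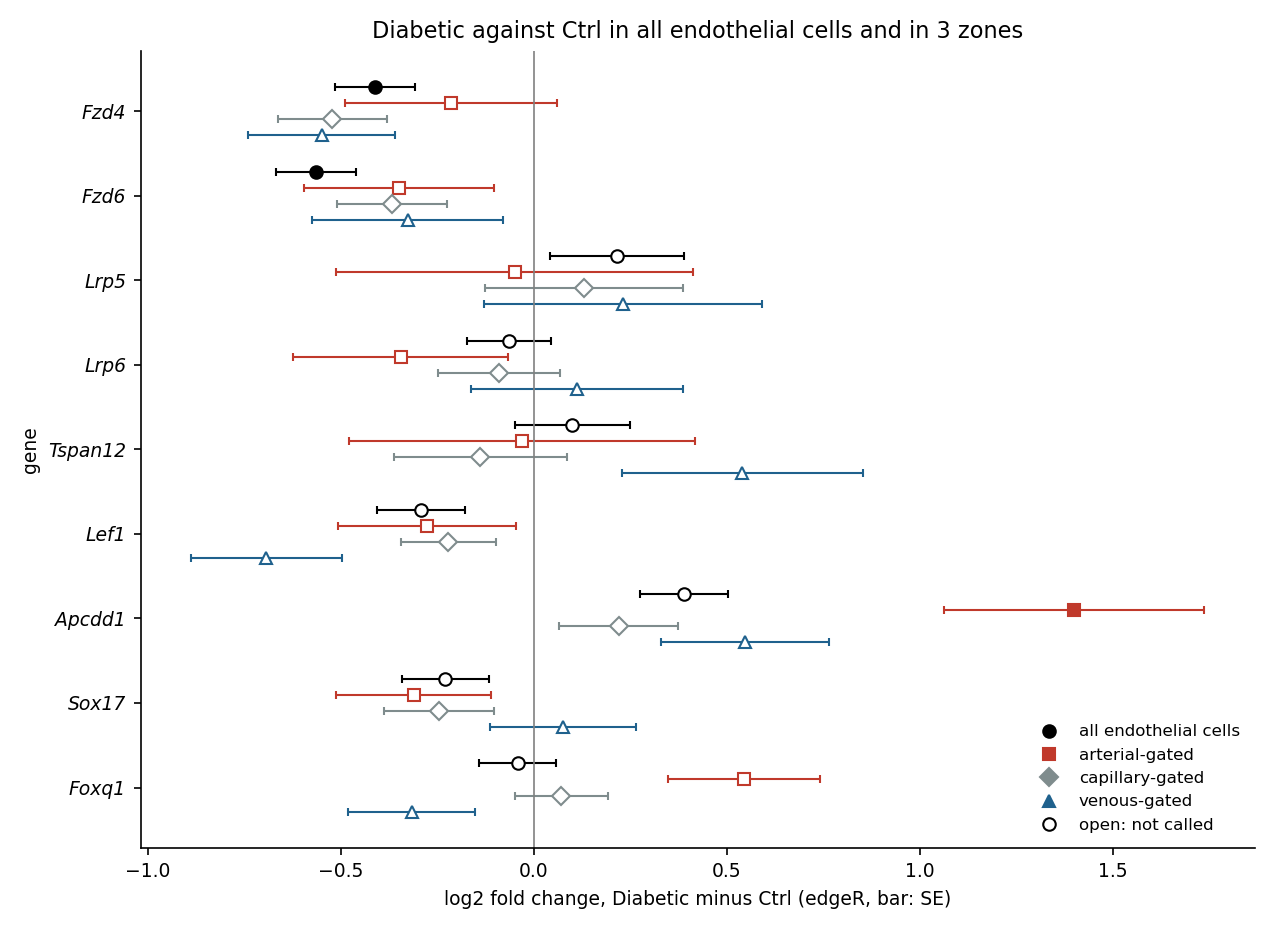
Log2 fold change, Diabetic minus Ctrl, with its SE (edgeR), for 9 genes in all endothelial cells and in 3 gated zones; filled symbols were called at an adjusted p under 0.05. Fzd4 (-0.41) and Fzd6 (-0.56) in all endothelial cells and Apcdd1 (1.40) in arterial-gated cells are the filled ones.

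The wider pathway in endothelial cells was read from 7 lists, whose counts stand beside 4.41% of all genes called, 2.68% higher and 1.72% lower. Calls of list genes other than the members are given from the main fits alone, without leaving out a library and without DESeq2. Of 21 receptor and co-receptor genes 14 were tested, with 0 higher and 2 lower, Fzd4 and Fzd6 (over all genes 1.72% lower), and a median log2 fold change of -0.04. Of 20 ligands and co-factors 4 were tested and edgeR called none. The 2 highest were Wls, the Wnt carrier, at 52.2 and 49.6 CPM in Diabetic and 56.1 and 58.8 CPM in Ctrl, and Porcn, which lipidates Wnts (-0.05, edgeR adjusted p = 0.964). Of 17 inhibitors 6 were tested and edgeR called none, with Dkk3 at -0.20 (edgeR adjusted p = 0.704).

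In the beta-catenin relay 20 of 21 genes were tested, with 0 higher and 1 lower, and a median of -0.16. At 4.41% over all genes, 1 in 20 is near the share of all genes called. The called gene was Ctnnb1, which encodes beta-catenin. It had 696 and 707 CPM in Diabetic and 892 and 984 CPM in Ctrl, with no overlap (-0.42 ± 0.10, edgeR adjusted p = 0.0331). In venous-gated cells, where 3.02% of genes were called, it was also called, at -0.71 ± 0.16 (edgeR adjusted p = 0.0136). Beta-catenin serves cell junctions as well as Wnt signalling.

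All 10 feedback and early target genes were tested, with 2 higher and 0 lower (over all genes 2.68% and 1.72%), and a median of -0.10. Ccnd1, the gene of cyclin D1, had 92.3 and 102 CPM in Diabetic and 59.6 and 51.4 CPM in Ctrl (0.78 ± 0.14, edgeR adjusted p = 0.00479). Myc, a growth factor-induced transcription factor, had 55 UMIs in Diabetic and 1 in Ctrl, a ratio of 23.1 with a 95% counting interval of 3.97 to 927. Both genes answer to many signals. The feedback inhibitor Axin2, a standard readout of Wnt signalling that was added here after its values were seen, had 62.4 and 62.4 CPM in Diabetic and 65.7 and 76.7 CPM in Ctrl (-0.18, edgeR adjusted p = 0.562). In venous-gated cells, where 3.02% of genes were called, the Wnt inhibitor gene Nkd2 was called lower (-2.66 ± 0.68, edgeR adjusted p = 0.0348). It stood at 9.37 and 2.28 CPM in Diabetic and 55.4 and 34.1 CPM in Ctrl. The Diabetic 2 value lies below the 6.84 CPM that 3 counts would give there. The Ctrl values come from 28 and 22 cells, so the fold rests on few UMIs.

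All 13 barrier output genes were tested, with 2 higher and 1 lower (over all genes 2.68% and 1.72%), and a median of -0.23. The glucose transporter Slc2a1 had 2707 and 2789 CPM in Diabetic and 1950 and 2223 CPM in Ctrl (0.39 ± 0.10, edgeR adjusted p = 0.0477). Slc38a5, a glutamine transporter, had 88.4 and 122 CPM in Diabetic and 51.0 and 57.1 CPM in Ctrl (0.96 ± 0.18, edgeR adjusted p = 0.00784). The arginine transporter Slc7a1 had 465 and 455 CPM in Diabetic and 681 and 562 CPM in Ctrl (-0.44 ± 0.11, edgeR adjusted p = 0.037). Cldn5, the tight junction claudin of the barrier, was at 0.05 ± 0.11 (edgeR adjusted p = 0.881). Slc7a1 and Itm2a, a membrane protein, were also called lower in venous-gated cells (3.02% of genes called), at -0.95 ± 0.18 (edgeR adjusted p = 0.0034) and -0.71 ± 0.15 (0.0084).

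All 7 SoxF and barrier transcription factor genes were tested and edgeR called none, with a median of -0.04. The 2 highest were Foxq1 and Sox17. In Müller glia none of the genes tested in these lists was called. The highest there were receptor Fzd5, at 277 and 307 CPM in Diabetic and 337 and 346 CPM in Ctrl (-0.21, edgeR adjusted p = 0.821), and the secreted Dkk3, at 1973 and 1917 CPM in Diabetic and 2198 and 2338 CPM in Ctrl (-0.21, edgeR adjusted p = 0.830).

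**Figure D5:**
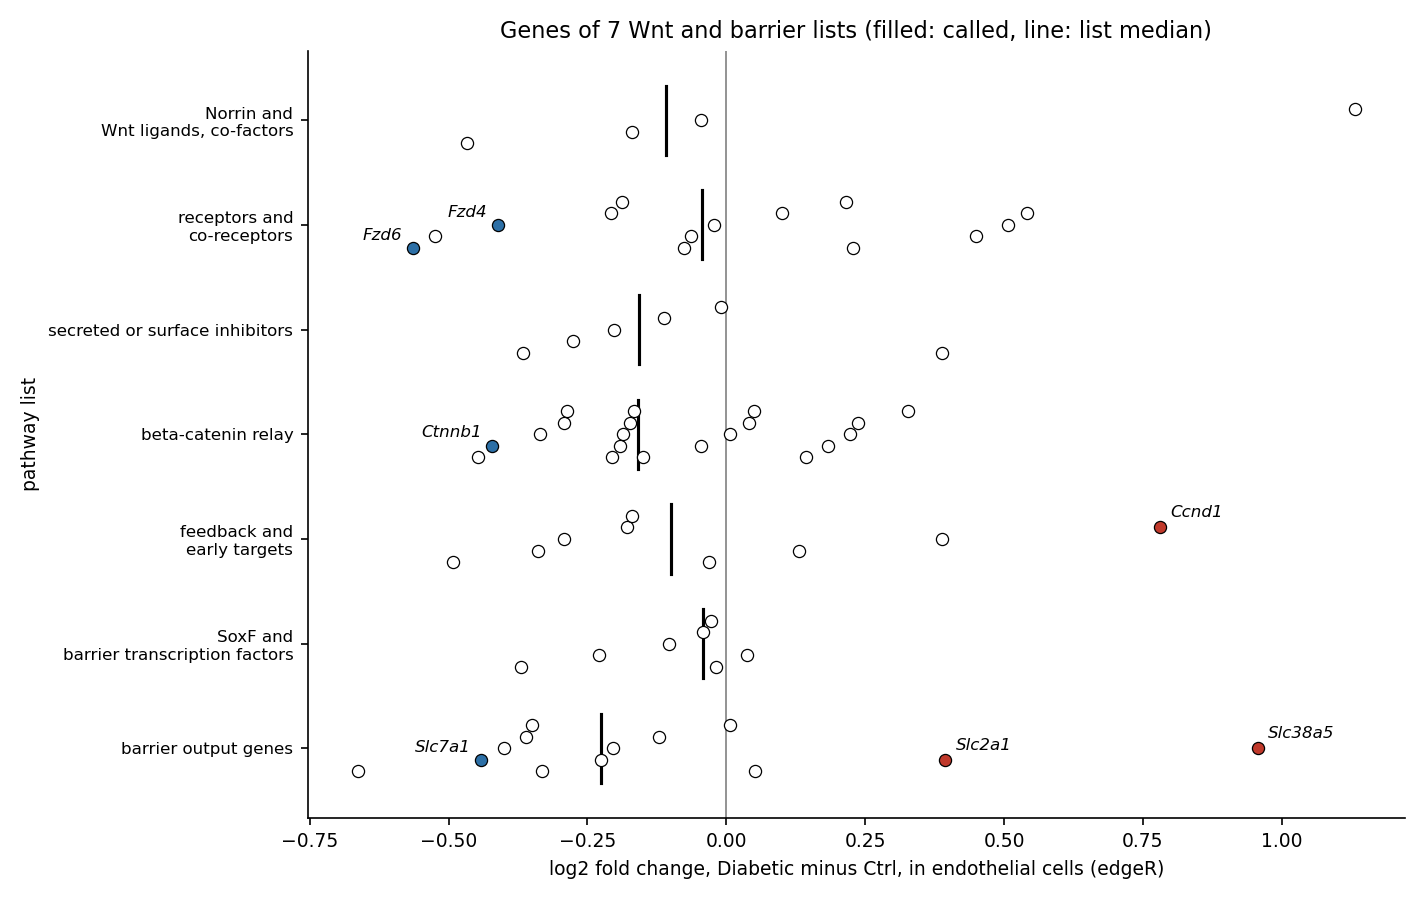
Log2 fold change, Diabetic minus Ctrl, in endothelial cells for each tested gene of 7 lists; filled points were called and named, and the line is the list median. Myc, with 1 UMI in Ctrl, is not drawn but counts in its list's median, Lef1 and Apcdd1 stand in more than 1 list, and list medians lie between -0.23 and -0.04.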

How the data were processed

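Counts were deposited by the authors as 10x matrices of UMI counts per gene and barcode, 1 per library, made with Cell Ranger 7.0.0 and STAR 2.7.10b on mm10, per the submitters' processing notes. Barcodes needed at least 500 UMIs, 300 genes and at most 20% mitochondrial UMIs. Cell classes and vessel zones were gated on marker UMIs per 10000 UMIs, with limits on the markers of other classes. Those limits also removed mixed barcodes, and doublet calling with Scrublet in scanpy 1.11.5 served only as an alternative. The gate thresholds were set after marker counts were seen. UMIs were summed per library and class, without using cells as replicates. edgeR 4.0.16 (R 4.3.3; quasi-likelihood F test, two-sided, TMM scaling, filterByExpr) was fitted on all genes, with Benjamini-Hochberg adjustment and calls at an adjusted p under 0.05. Contrasts between zones or classes had library as a block, and a fit needed 20 cells in each library. DESeq2 1.42.0 was an alternative. Intervals and limits from a count of 0 (3 counts) cover counting error only. In counts simulated for the endothelial comparison (11324 genes), the test recovered 95.3% of 86 genes changed by a log2 of 1. It also called 19 unchanged genes. The changed genes were drawn from the more highly expressed ones. Changes smaller than a log2 of 1, such as those of Fzd4 and Fzd6, were not simulated, so the recovered share does not cover them.

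The members and the pathway lists were chosen with earlier results of these data known. Named were all 10 members, the called genes of each list, the 2 highest genes per list, and the 5 genes most like Ndp and Fzd4 with at least 20 CPM in 1 class. Endothelial cells came to 4537183 and 3106912 UMIs in Diabetic and 1979560 and 1224987 in Ctrl, and Müller glia to 484103 and 475172 in Diabetic and 774176 and 714294 in Ctrl. Endothelial values are thus the more precise. The Apcdd1 sequence and position are not reported here.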

Additional observations from a re-analysis of the deposited data

Results flagged for a closer look

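The effect of the Diabetic label on Foxq1 differed between arterial-gated and venous-gated endothelial cells, by 0.88 ± 0.20 on the log2 scale (arterial minus venous, edgeR interaction, adjusted p = 0.00607). Foxq1 averaged 813 ± 55.3 CPM in Diabetic and 551 ± 45.5 CPM in Ctrl arterial-gated cells. In venous-gated cells it averaged 597 ± 52.2 CPM in Diabetic and 752 ± 42.7 CPM in Ctrl (SD, n = 2 each). Both Diabetic libraries were above both Ctrl libraries in the arterial-gated cells and below them in the venous-gated cells. Pericyte markers lay on the same sides, at 1623 and 1203 CPM in Diabetic and 1167 and 1007 CPM in Ctrl arterial-gated cells, and 1377 and 1547 CPM in Diabetic and 1918 and 1740 CPM in Ctrl venous-gated cells. Their part in the result was not tested. The call was lost when any 1 library was left out (0.84 to 0.91, adjusted p = 0.0596 to 0.172).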

How the results depend on the processing

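In all endothelial cells 511 genes and 2 members were called. DESeq2 called 244 genes and 1 member, a fit with no filter on low counts 889 genes and 3 members, and equal cells per zone 96 genes and 0 members. Without the inflamed venular cells 237 genes and 1 member were called. Alternatives chosen after seeing the data gave 299 genes and 1 member (tighter gate), 416 genes and 0 members (endothelial markers alone) and 179 genes and 0 members (barcodes with pericyte markers). Leaving out 1 library gave 274 to 463 genes and 0 to 1 member.

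The replicate numbers were not taken to pair the libraries, since there are 2 pairs only (correlation of same-numbered deviations 0.157). With a replicate block 1303 genes and 4 members were called, adding Lef1 at -0.29 and Apcdd1 at 0.40.

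Small log2 values turned sign. Foxq1 was at 0.039 with equal cells per zone, 0.027 with endothelial markers alone, 0.088 in barcodes with pericyte markers and 0.058 without inflamed venular cells, and Lrp6 at 0.088 with equal cells per zone. Leaving out 1 library gave -0.078 to 0.0017 for Foxq1, -0.15 to 0.32 for Tspan12, -0.52 to 0.27 for Ndp in Müller glia, -0.53 to 0.062 for Fzd4 in arterial-gated and -0.0099 to 0.41 for Apcdd1 in capillary-gated cells. The cause was not tested. In arterial-gated cells DESeq2 called 0 of the 4 members it gave an adjusted p, which leave out Apcdd1, and leaving out 1 library 0 to 1. Of 385 values recomputed, 313 kept their direction and side of the threshold or stayed near the original count, 34 lost a call, 4 gained one, 10 changed sign and 24 counts moved. A stricter gate left too few cells and was not run. With 2 libraries a group, and few Ndp UMIs, small differences were not detectable.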
